A study of Homo sapiens with 4 samples.

Results

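Open chromatin was examined at 31 genes of the mesenchymal state and of the epithelial-mesenchymal transition (EMT), out of 19974 protein-coding genes on chromosomes 1 to 22 and X. The genes were chosen by name as parts of this programme, with earlier results of these data known, and no threshold on accessibility entered the choice. They comprise 8 transcriptional regulators, 9 genes for adhesion, the cytoskeleton and receptors, and 14 genes for the extracellular matrix and its enzymes. Of 122856 accessible regions in the genome, 218 were theirs: 107 inside a gene of the list, and 111 outside with that gene as the nearest protein-coding gene within 100 kb.

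The cells were HCT116, an established human colorectal carcinoma line, stably transduced with lentivirus and kept under puromycin. Both groups carry the pSin vector and its puromycin selection. In the 2 control libraries the vector is empty, and in the 2 FOXD2 libraries it holds the full-length coding region of FOXD2, a transcription factor of the forkhead family. ATAC-seq measured accessibility: the transposase Tn5 inserts sequencing adapters where DNA is open. Whether the libraries of a group are separate cultures is not stated, nor whether the lines are clonal. Their spread may therefore be technical.

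In EMT, epithelial cells give up their junctions and polarity and acquire migratory properties. Factors of the SNAI, ZEB and TWIST families bind E-boxes and repress E-cadherin and other epithelial genes, while vimentin, N-cadherin, integrins, collagens, fibronectin and matrix-cleaving enzymes become expressed. Carcinoma cells often hold intermediate states, and in colorectal tumours much of the mesenchymal expression comes from fibroblasts of the stroma. An accessible 5′ end is a condition for transcription in most genes but does not by itself show that a gene is expressed.

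The 5′ flanks of 8 genes show how differently these genes are built around their starts. They are the 250 bases before the annotated start, from RefSeq (GRCh38.p14), read 5′ to 3′ on the strand of the gene. In the first 6, capitals mark each CpG, the dinucleotide that is dense in CpG-island promoters. FN1 and AXL were open in every library, ZEB1 carried the only gained region of a regulator, COL5A1 was closed at its start despite many CpG, POSTN had no accessible region, and LOX was open only in control libraries.
FN1 (chr2:215436069-215436318, minus strand): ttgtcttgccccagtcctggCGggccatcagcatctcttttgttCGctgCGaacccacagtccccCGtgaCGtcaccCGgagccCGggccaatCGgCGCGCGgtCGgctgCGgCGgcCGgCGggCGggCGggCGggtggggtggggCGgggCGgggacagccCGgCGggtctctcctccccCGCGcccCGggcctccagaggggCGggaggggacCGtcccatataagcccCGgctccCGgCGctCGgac
AXL (chr19:41218973-41219222, plus strand): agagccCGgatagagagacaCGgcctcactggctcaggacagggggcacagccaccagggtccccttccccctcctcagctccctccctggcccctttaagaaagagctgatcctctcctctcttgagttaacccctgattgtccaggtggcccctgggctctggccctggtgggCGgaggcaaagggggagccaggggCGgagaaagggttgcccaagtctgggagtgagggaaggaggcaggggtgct
ZEB1 (chr10:31318167-31318416, plus strand): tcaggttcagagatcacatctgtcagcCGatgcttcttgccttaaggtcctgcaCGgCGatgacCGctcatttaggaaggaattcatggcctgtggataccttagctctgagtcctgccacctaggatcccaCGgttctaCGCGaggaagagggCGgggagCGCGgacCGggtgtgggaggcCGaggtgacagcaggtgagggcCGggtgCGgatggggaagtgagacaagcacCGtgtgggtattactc
COL5A1 (chr9:134641553-134641802, plus strand): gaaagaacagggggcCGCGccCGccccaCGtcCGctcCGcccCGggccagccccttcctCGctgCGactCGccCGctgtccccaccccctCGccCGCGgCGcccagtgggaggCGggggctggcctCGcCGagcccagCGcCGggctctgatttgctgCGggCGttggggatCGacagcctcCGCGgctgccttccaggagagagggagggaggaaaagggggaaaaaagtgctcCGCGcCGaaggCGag
POSTN (chr13:37598769-37599018, minus strand): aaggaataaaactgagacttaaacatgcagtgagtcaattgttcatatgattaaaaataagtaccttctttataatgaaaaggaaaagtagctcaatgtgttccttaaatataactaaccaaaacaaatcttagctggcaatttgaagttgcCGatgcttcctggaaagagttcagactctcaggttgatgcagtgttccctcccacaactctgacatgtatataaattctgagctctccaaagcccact
LOX (chr5:122078260-122078509, minus strand): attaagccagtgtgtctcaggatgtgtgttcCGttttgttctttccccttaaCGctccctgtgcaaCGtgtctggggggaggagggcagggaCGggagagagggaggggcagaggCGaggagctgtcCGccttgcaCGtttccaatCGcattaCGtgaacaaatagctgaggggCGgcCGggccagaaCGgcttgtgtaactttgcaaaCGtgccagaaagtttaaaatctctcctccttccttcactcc
In the remaining pair, capitals mark the forkhead letters TGTTTAC or their reverse complement GTAAACA. These were the only such matches in the flanks of the 19 listed genes that the promoter table holds.
ACTA2 (chr10:88991338-88991587, minus strand): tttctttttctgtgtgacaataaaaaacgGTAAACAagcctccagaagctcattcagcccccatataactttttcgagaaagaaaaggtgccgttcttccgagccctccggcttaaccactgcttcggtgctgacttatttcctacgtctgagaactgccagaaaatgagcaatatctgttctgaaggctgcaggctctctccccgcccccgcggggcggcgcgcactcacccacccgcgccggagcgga
TCF4 (chr18:55635958-55636207, minus strand): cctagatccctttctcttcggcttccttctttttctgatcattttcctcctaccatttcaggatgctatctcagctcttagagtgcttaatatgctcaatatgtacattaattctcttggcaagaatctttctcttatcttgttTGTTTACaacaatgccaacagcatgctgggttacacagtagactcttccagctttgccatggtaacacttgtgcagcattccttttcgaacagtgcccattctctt

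Each deposited file is a list of intervals called in a single library, so a site is either called or not, and read depth is unknown. Control replicates 1 and 2 had 77752 and 72796 intervals. The FOXD2 lists were the longest (82739, replicate 1) and the shortest (64675, replicate 2). Strength is given as the authors' −log10 q at the summit of the strongest interval, which depends on depth and is read here within a library. Per-library values below always follow the order control 1, control 2, FOXD2 1, FOXD2 2. As a check of the cell type, 6 of 8 colon epithelium markers were open at the 5′ end in all 4 libraries, with VIL1 open in 2 and KRT20 in 3. Of the fibroblast markers 2 of 8 were open (COL1A1 and PDGFRA) and 6 closed, and no leukocyte marker of 5 and no endothelial marker of 4 was open in all 4. The leukocyte marker CD3E was open in 2 libraries, and the endothelial markers KDR and CDH5 in 3 and 2. The vector supplies FOXD2 coding sequence, so reads inside that gene cannot be assigned to the chromosome or the vector. A region across the lower-coordinate end of FOXD2 (chr1:47437203-47438525) had values of 64.0, 54.0, 50.4 and 24.4, and a region inside it (chr1:47438790-47439493) had 8.29, no interval, 17.1 and 17.7.

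The intervals at the 31 genes numbered 153, 144, 143 and 113. They made up 0.197% (95% Clopper-Pearson interval 0.167 to 0.231, counting error only), 0.198% (0.167 to 0.233), 0.173% (0.146 to 0.204) and 0.175% (0.144 to 0.210) of the respective list. Both FOXD2 shares lay under both control shares, at means of 0.174% ± 0.00133 (SD, n = 2) and 0.197% ± 0.000731 (SD, n = 2), a difference of −0.0235 percentage points. The two-sided exact permutation test gave p = 0.333, which is the smallest value that 2 against 2 libraries allow. The counting intervals of the 4 shares overlap.

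At the 5′ ends the programme was neither uniformly open nor closed. A gene counted as open where a library had an interval within 1000 bp of its annotated start. For the 12 listed genes whose strand was not given, either end of the gene was accepted. The same rule applied to 4162 of the 19974 protein-coding genes, a smaller part than in the list. The shares below were therefore not scored quite alike, and the rule favours open calls in the list. Of the 31 genes, 19 (61.3%) were open in all 4 libraries, against 64.2% of all protein-coding genes. TAGLN is among the 19 only through an interval at its higher-coordinate end that also overlaps PCSK7. Another 6 (19.4%) were closed in all 4, against 25.1% of all genes: the regulators ZEB2 and TCF4, and the matrix genes COL3A1, COL5A1, MMP9 and POSTN. The other 6 differed between libraries (TWIST2, CDH2, CDH11, LOX, MMP2 and SPARC). By library, 22, 23, 22 and 19 were open.

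The state differed by role. Among adhesion, cytoskeleton and receptor genes, 7 of 9 were open in all 4 libraries and 0 were closed. The 7 include TAGLN, open in all 4 only at its higher-coordinate end. Among regulators 5 of 8 were open and 2 closed, and among matrix genes 7 of 14 were open and 4 closed. By comparison, of 26 epithelial genes that oppose or are repressed in EMT (among them CDH1, EPCAM, GRHL2 and the claudins), 22 (84.6%) were open in all 4 libraries and 0 closed. These differences between lists are described, not tested.

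**Figure D1:**
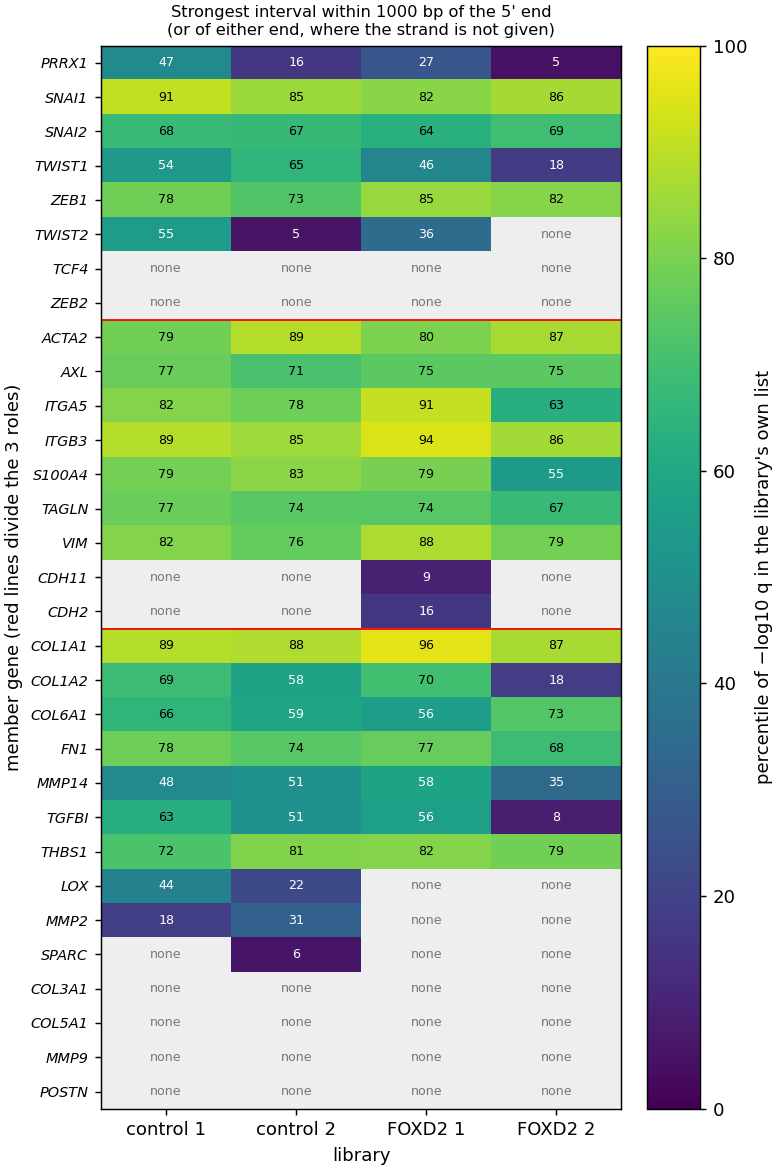
Heat map of the strongest interval within 1000 bp of the 5′ end (either end where the strand was not given), with the 31 genes as rows in their 3 roles and the 4 libraries as columns. Colour and printed figure are the percentile of −log10 q in that library's own list, and grey cells marked none had no interval. COL1A1, ITGB3 and SNAI1 rank high in every library, whereas LOX and MMP2 have values in the 2 controls and none in the 2 FOXD2 libraries.

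Presence across the 218 regions was mostly variable between libraries. All 4 libraries called 75 of them (34.4%, against 34.1% of the regions of all genes), and 80 (36.7%, against 39.5%) were called in a single library. Regions called by both FOXD2 libraries but by no control are termed gained, and those called by both controls but by no FOXD2 library are termed lost. There were 4 gained regions, at ZEB1, AXL, ITGA5 and COL5A1, and 10 lost ones, at 9 genes. Across the genome 3.89% of regions were gained and 3.87% lost, so the share gained at the listed genes (1.83%) lay under the background and the share lost (4.59%) near it. No test applies to these counts. Leaving out FOXD2 replicate 2 turned their order, to 28 gained and 16 lost, when 19.5% of all regions were gained and 5.93% lost.

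The number of regions per gene varied widely. COL5A1, a fibrillar collagen chain, and TWIST2, a basic helix-loop-helix repressor, had 26 each, a number reached by 2.14% of protein-coding genes. The median of the list was 6, against 4 over all genes. POSTN, which encodes the matrix protein periostin, had 0 regions in any library, as did 9.15% of all genes. Both FOXD2 libraries held fewer regions than both controls at 5 genes (LOX, MMP2, MMP14, PRRX1 and TAGLN), where 7.8% of all genes did so. The reverse was seen at 0 of the 31, where 6.61% of all genes did so.

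**Figure D2:**
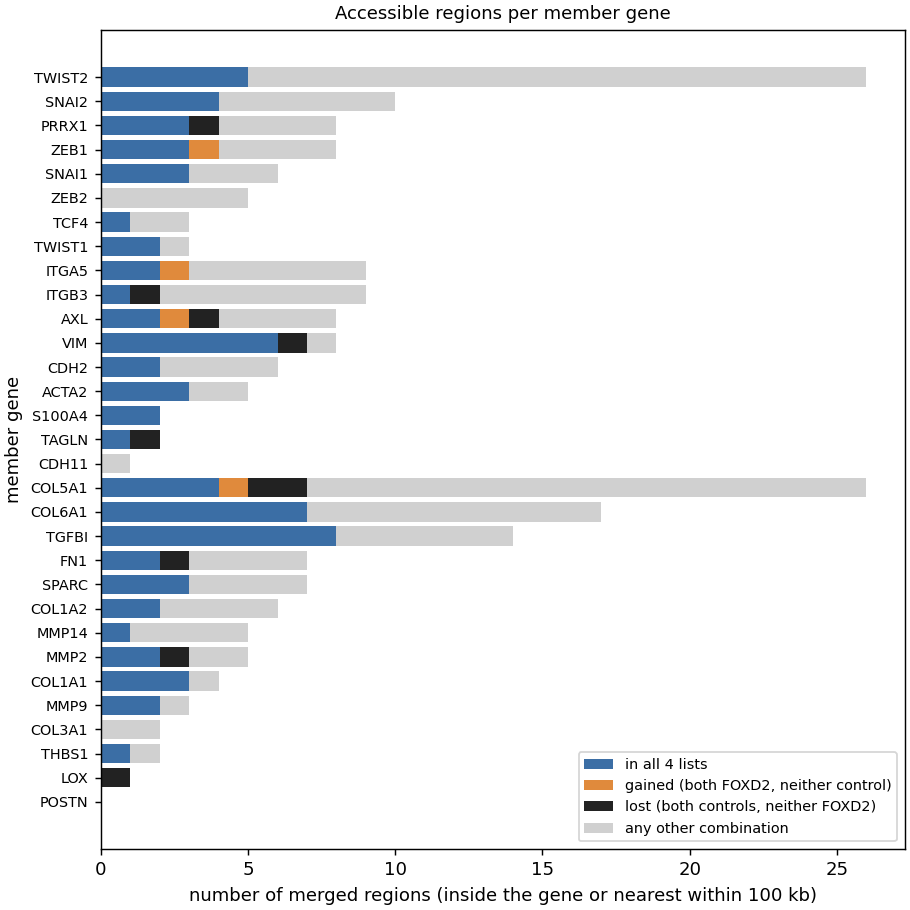
Number of accessible regions assigned to each of the 31 genes, stacked by whether all 4 libraries, both FOXD2 libraries only (gained), both controls only (lost) or any other combination called them. TWIST2 and COL5A1 stand at 26 regions, and the only region of LOX is a lost one.

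Among the regulators, ZEB1 carried the only gained region. ZEB1 encodes a zinc-finger repressor of E-cadherin. A region inside the gene (chr10:31426243-31426831), 108120 bp past the start, had −log10 q of 10.4 and 10.7 in FOXD2 replicates 1 and 2 and no interval in the controls. The nearest control intervals were 40555 and 41032 bp away. It stayed gained with −log10 q of 5 or more and with lists of equal length, whereas the gained regions of AXL, ITGA5 and COL5A1 did not. Merging windows around the summits, or gaps of up to 200 bp, also left it gained. The other alternatives could not end it, since leaving out a library relaxes the rule and the region lies inside the gene. The ZEB1 region was the strongest of the 4 gained regions of the list. Their medians were 5.22 and 4.61 in the FOXD2 libraries, against 7.81 and 7.38 for all gained regions.

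To compare regions that every library called, the 39933 shared regions were ranked within each library by −log10 q, as a percentile that does not depend on list length. A region ranked higher where both FOXD2 percentiles lay above both control percentiles, and lower in the reverse case. A weaker signal can mean fewer cells with the site open or a less open site in each cell, which cannot be told apart in bulk cells. A second ZEB1 region (chr10:31467284-31468588) went from the bottom of the controls, at percentiles 6.05 and 1.28, to 38.3 and 65.0 in the FOXD2 libraries. Its −log10 q values were 7.17, 4.43, 17.8 and 24.6. The mean difference of 48.0 percentile points was the largest among the 75 shared regions. The ZEB1 start was open throughout, at 31.1, 25.7, 34.4 and 28.2, with percentiles of 57.9, 51.7, 68.4 and 70.8, also higher in both FOXD2 libraries.

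ZEB2, the paralogue of ZEB1, was closed at its start in all 4 libraries and had no shared region. Its most often called region, 3243 bp into the gene (chr2:144516560-144517193), had values of 11.3, 6.14, 8.81 and no interval. TCF4, a basic helix-loop-helix factor that binds E-boxes, was likewise closed at its annotated start. Its sole shared region (chr18:55234531-55235010) lies near the other end of the gene and had values of 40.6, 27.0, 15.6 and 19.9, with percentiles of 68.9, 54.1, 32.4 and 55.4 that overlap between the groups.

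SNAI1 and SNAI2 encode the zinc-finger repressors Snail and Slug, and both had a gene end open in all 4 libraries. The SNAI1 interval was among the strongest of the list, at 58.3, 41.8, 30.6 and 33.9, and its percentiles of 81.9, 72.5, 63.4 and 78.2 overlapped between the groups. A region 40691 bp beyond SNAI1 (chr20:50029577-50030388) had 16.1, 8.30, 7.68 and 4.99 and ranked lower in the FOXD2 libraries (difference −14.0 points). Its percentiles were 30.0, 10.9, 9.06 and 3.83, so FOXD2 replicate 1 lay close to control replicate 2.

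At SNAI2 the open end had 20.1, 20.7, 15.0 and 18.2, without separation of the groups. Its flanking regions went both ways. The region 1921 bp from the gene (chr8:48923350-48923817) had 20.3, 25.6, 36.9 and 29.5 and ranked 26.3 points higher in the FOXD2 libraries. The region 51976 bp away (chr8:48864899-48865622) had 43.9, 31.5, 17.6 and 15.3 and ranked lower, with a difference of −26.0 points. A weaker region at 20093 bp ranked 6.84 points higher.

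TWIST1, a basic helix-loop-helix regulator of mesoderm, also combined opposite orders. The region at its higher-coordinate end (chr7:19116421-19117964) had 12.4, 19.5, 9.11 and 5.60, and both FOXD2 percentiles lay under both controls, with a difference of −20.9 points. A region 11770 bp outside the gene (chr7:19100527-19101277) had 22.4, 26.1, 39.3 and 37.8 and ranked 29.8 points higher in the FOXD2 libraries. Its paralogue TWIST2 was open at the start in 3 libraries, at 13.2, 4.01 and 7.34, with no interval in FOXD2 replicate 2. The strongest shared region of TWIST2 (chr2:238864138-238864983) had 32.7, 51.8, 39.3 and 24.8, and none of its 5 shared regions separated the groups.

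PRRX1, a homeobox gene of mesenchymal cells, was open at its start in all 4 libraries but weakly, at 10.5, 5.31, 6.05 and 3.86. Inside PRRX1 a region (chr1:170671217-170671661) with 6.69 and 12 in the controls was absent from both FOXD2 lists, whose nearest intervals were 6156 and 6679 bp away. The control summits lay apart, so with summit windows this region was no longer lost. The strongest shared region of the gene (chr1:170707994-170708566) had 17.6, 47.5, 17.8 and 31.6, so the controls alone spanned the FOXD2 values there.

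VIM, which encodes the intermediate filament protein vimentin, showed the most regular pattern of the adhesion and cytoskeleton genes. Of its 6 shared regions, 4 ranked higher in both FOXD2 libraries and 0 ranked lower, against 19% and 19.6% of all shared regions. The start region (chr10:17228314-17229640) had −log10 q of 36.3, 29.0, 40.4 and 25.6 and percentiles of 64.3, 57.2, 74.9 and 66.6. The −log10 q values of the groups overlap, while the percentiles separate by a small margin. The adjacent region inside the gene (chr10:17229905-17230933) had 25.4, 15.7, 26.3 and 22, a difference of 18.2 points. Farther out, a region 20035 bp beyond the gene (chr10:17257628-17258080) had 9.07, 12, 17.8 and 22.5, a difference of 33.5 points, and the region 11616 bp before it ranked 22.8 points higher. A lost region of VIM (chr10:17272775-17273179; 5.38 and 3.64 in the controls) lay 131 and 116 bp from FOXD2 intervals of a neighbouring region that all 4 libraries called, and merged with it when gaps of up to 200 bp were closed.

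The cadherins associated with mesenchymal cells had few intervals within 1000 bp of the start of CDH2 or of either end of CDH11. CDH2, N-cadherin, had an interval there in FOXD2 replicate 1 alone (4.94), and CDH11 had its only region, also at 1 gene end, in that same library (4.14). FOXD2 replicate 1 is the longest of the 4 lists. The strongest shared region of CDH2 (chr18:28175395-28176056) had 7.73, 9.14, 11.4 and 6.15, with overlapping percentiles. It lies inside the gene with its middle 1405 bp from the start, beyond the 1000 bp window, so all 4 libraries had an interval near that start.

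The integrin subunits were open in every library. ITGA5, a subunit of the fibronectin receptor, had 36.2, 31.2, 49.0 and 15.1 at its start, where the FOXD2 libraries lay on either side of the controls. A region 9253 bp outside ITGA5 (chr12:54428519-54429030) was gained, at 4.94 and 4.41, but the FOXD2 summits lay apart, so with summit windows it was no longer gained. The strongest shared region of ITGA5, inside the gene (chr12:54399336-54399706), had 32.3, 34.2, 31.1 and 36.5. ITGB3, a subunit of the vitronectin receptor, had 52.2, 42.6, 58.7 and 33.2 at its lower-coordinate end. A region inside ITGB3 (chr17:47275294-47275862) was lost, with 10.3 and 7.46 in the controls and the nearest FOXD2 intervals 8896 and 9069 bp away.

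The contractile genes ACTA2, for smooth muscle actin, and TAGLN, for transgelin, both had an end open in all 4 libraries, but each of these intervals also overlaps another gene. The ACTA2 interval (chr10:88990220-88991487; 31.8, 50.4, 28.1 and 34.6) overlaps FAS, so its signal cannot be assigned to either gene. Of the other shared regions of ACTA2, a region overlapping its lower-coordinate end ranked 14.4 points higher and a region 2089 bp beyond that end ranked lower, at −20.1 points. The region at the end had percentiles of 5.60, 27.6, 33.4 and 28.5, so FOXD2 replicate 2 lay close to control replicate 2. At TAGLN the constantly open interval (chr11:117206537-117207343; 29.5, 27.0, 21.6 and 17.2) lies at the higher-coordinate end and overlaps PCSK7. The lower-coordinate end of TAGLN (chr11:117199097-117199500) had an interval in both controls, at 4.97 and 4.78, and in neither FOXD2 library, whose nearest intervals were 7056 and 7278 bp away. These control intervals fell under a threshold of −log10 q of 5.

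S100A4, a calcium-binding protein often used as a fibroblast marker, had a weak shared region across its start (chr1:153545735-153546032; 7.13, 7.76, 6.98 and 7.36) whose groups overlap. A stronger region just inside the gene (chr1:153544821-153545441), with 32.5, 38.1, 27.0 and 12.1, ranked lower in both FOXD2 libraries. Its percentiles were 59.6, 68.7, 57.8 and 32.1, most of the difference coming from FOXD2 replicate 2, and by fold enrichment the groups overlap (−6.31 in place of −19.2 points). AXL, a receptor tyrosine kinase, was steadily open at its start, at 29.7, 24.0, 22.6 and 21.8, and its strongest shared region (chr19:41225596-41226599) had 42.8, 34.6, 21.0 and 33.0. Inside AXL a region was lost (chr19:41223645-41223935; 12 and 5.69) and another gained (chr19:41237907-41238403; 4.18 and 3.76).

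**Figure D3:**
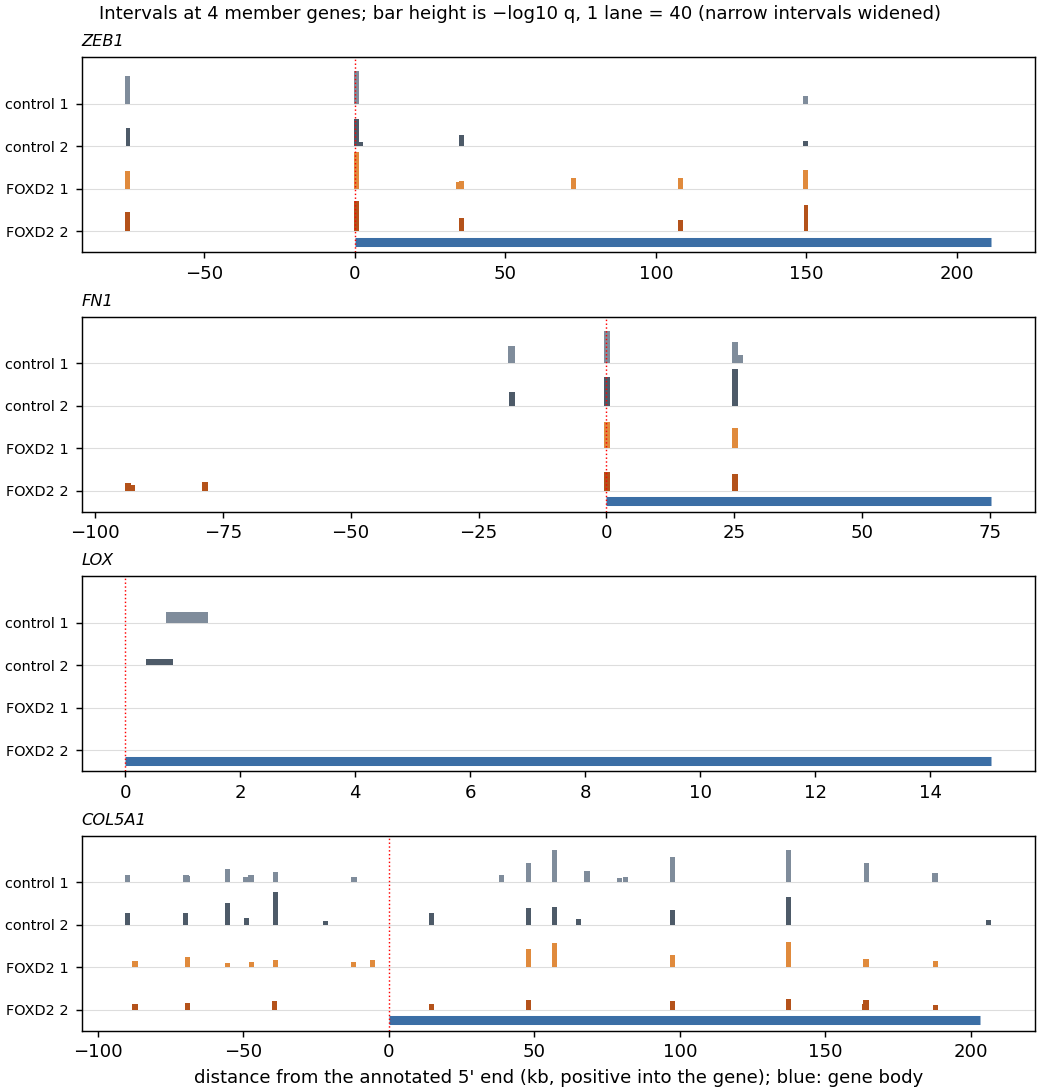
Strongest called interval of each region of ZEB1, FN1, LOX and COL5A1 in each library, against the distance in kb from the annotated start, positive into the gene. Bar height is −log10 q, the blue band is the gene body, and narrow intervals are widened to be visible. At LOX both controls hold an interval beside the start and both FOXD2 libraries hold none.

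LOX, the lysyl oxidase that cross-links collagen, was the gene of the list at which every region was lost. Its only region (chr5:122076824-122077892) had 9.69 and 6.13 in the controls and no interval in the FOXD2 libraries, whose nearest intervals were 21125 and 14196 bp away. The region chains 2 intervals of each control, and when only windows of 100 bp to either side of the summits were merged no window was shared by both controls. This region also overlaps the annotated body of SRFBP1. MMP2, a gelatinase, had 5.61 and 7.35 in the controls near its lower-coordinate end (chr16:55479218-55479597) and none in the FOXD2 libraries. LOX and MMP2 were thus 2 of 31 genes whose 5′ end was open in both controls and neither FOXD2 library, a state found in 0.831% of all genes. The reverse occurred at 0 of the 31 and at 0.431% of all genes. The control intervals at LOX and MMP2 were weak, at list percentiles between 18.4 and 44.0. The lower-coordinate end of TAGLN also had intervals in both controls and in neither FOXD2 library. TAGLN was not counted with LOX and MMP2, because its other end was open in all 4 libraries.

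The rest of MMP2 did not follow its lower-coordinate end. A region inside MMP2 (chr16:55502657-55503359) had 20.2, 16.4, 35.2 and 16.4 and ranked 21.8 points higher in the FOXD2 libraries. Its percentiles were 39.4, 32.6, 69.4 and 46.3, most of the difference coming from FOXD2 replicate 1. The strongest shared region, 13042 bp outside MMP2 (chr16:55465136-55465788), had 21.2, 35.5, 26.7 and 11.5. The gelatinase MMP9 was closed at both ends, although a region 14896 bp outside it (chr20:45993233-45994012) ranked 40.1 points higher, with 14.0, 23.5, 37.9 and 36.1. Inside MMP9 a shared region (chr20:46013583-46014528) had 40.9, 42.8, 39.2 and 25.6.

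MMP14, a membrane-bound matrix metalloproteinase, was open within 1000 bp of its start in all 4 libraries, at 10.6, 12, 12.6 and 7.76, but not in the same region. FOXD2 replicate 1 had an interval across the start (chr14:22836472-22836981) and FOXD2 replicate 2 had its interval downstream (chr14:22837200-22837820), while the controls had both. The strongest shared region of MMP14 lay 5102 bp outside (chr14:22852860-22853885), at 54.1, 63.8, 43.1 and 39.4.

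FN1, fibronectin, had the largest lost region of the list by strength. It lies 18361 bp outside the gene (chr2:215454429-215454754), had 16.5 and 13.0 in the controls, and had no FOXD2 interval within 18052 bp. The 10 lost regions of the list had medians of 6.97 and 7.40 in the controls, against 7.22 and 7.03 for all lost regions. The FN1 start remained open, at 30.4, 26.6, 24.4 and 17.8. Its percentiles of 57.0, 53.3, 53.2 and 50.2 were lower in the FOXD2 libraries by a margin so small that ranking by fold enrichment reversed its sign, from −3.49 to 2.61 points. The TAGLN region at PCSK7 reversed likewise, from −6.74 to 1.43.

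Fibrillar collagen genes differed from each other. COL1A1, a chain of type I collagen, was strongly open at its higher-coordinate end, at 52.5, 48.5, 65.9 and 34.9, and ranked 7.0 points higher in the FOXD2 libraries. The percentiles of that end were 78.4, 78.1, 91.4 and 79.2, most of the difference coming from FOXD2 replicate 1. By −log10 q the FOXD2 libraries lay on either side of the controls. A region 7855 bp beyond COL1A1 (chr17:50209486-50211204) had 17.9, 29.9, 11.2 and 8.92 and ranked lower, at −27.1 points. COL1A2, the partner chain, had 20.8, 15.1, 18.5 and 5.64 at its lower-coordinate end, the last from a separate interval outside the gene. The other values came from a region inside the gene (chr7:94395347-94395768) that all 4 libraries called, at 5.01 in FOXD2 replicate 2. The strongest shared region of COL1A2 (chr7:94300929-94301874) had 34.0, 39.3, 32.1 and 20.9. COL3A1 was closed at both ends and had 2 regions, neither shared.

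COL5A1 was closed at its start in all 4 libraries, but 4 of its 26 regions were shared. Of these, 2 inside the gene ranked lower in the FOXD2 libraries: chr9:134738845-134739709, with 23.9, 13.8, 11.2 and 7.61 (−19.6 points), and chr9:134778911-134779279, with 30.3, 26.1, 23.4 and 9.86 (−17.6 points). At chr9:134778911-134779279 the percentiles were 56.9, 52.6, 51.2 and 23.1, most of the difference coming from FOXD2 replicate 2. Before the gene, COL5A1 had a gained region (chr9:134554438-134554900; 5.51 and 4.81) and 2 lost ones. The lost region chr9:134552048-134552313 had 6.66 and 10.6 in the controls. The other, chr9:134571823-134572341, had 7.26 and 10.6 but lay 133 and 134 bp from FOXD2 intervals. These outer regions are 69462 bp or more from COL5A1 and were assigned to it only as the nearest gene.

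Of the remaining matrix genes, COL6A1, a type VI collagen chain, had 7 shared regions, 2 of which ranked higher in the FOXD2 libraries. These were chr21:46006326-46007058 (15.9, 9.0, 30.7 and 12.5; 27.3 points) and chr21:45970509-45971108 (19.0, 12.1, 20.3 and 25.0; 25.7 points). At chr21:46006326-46007058 the percentiles were 29.5, 13.1, 63.5 and 33.7, most of the difference coming from FOXD2 replicate 1. The COL6A1 lower-coordinate end had 18.7, 15.7, 11.7 and 20.8. TGFBI, a secreted protein induced by TGF-β, had 8 shared regions, the most of any gene on the list, 2 higher and 1 lower. Its start had 16.6, 12, 12.1 and 4.35, and its strongest region (chr5:136016890-136017502) had 44.9, 32.9, 31.9 and 20.8, both overlapping in percentile.

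THBS1, thrombospondin, had 23.6, 35.4, 29.8 and 25.2 at its start, where LOC124903470 also overlaps. SPARC, a collagen-binding matrix protein, had an interval at its start in control replicate 2 alone (4.05). The strongest SPARC region (chr5:151658962-151659466) lay 1630 bp from the other end of the gene and had 63.9, 45.8, 43.7 and 29.8, with overlapping percentiles. No shared region of THBS1 or SPARC separated the groups.

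Over all 75 shared regions of the list, 17 (22.7%) ranked higher in both FOXD2 libraries, 11 (14.7%) ranked lower and 47 overlapped between the groups. Across all 39933 shared regions, 19% ranked higher and 19.6% lower. Ranked by fold enrichment, 16 of the 17 and 8 of the 11 kept their order and the others overlapped, among them S100A4, TAGLN and FN1. The median difference was 0.61 percentile points (quartiles −6.35 and 9.59), against −0.28 for the shared regions of all genes. By role, regulators had 5 higher and 3 lower of 21, adhesion and cytoskeleton genes 5 and 3 of 19, and matrix genes 7 and 5 of 35. In each role regions of either order occurred, so the list had no common direction.

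**Figure D4:**
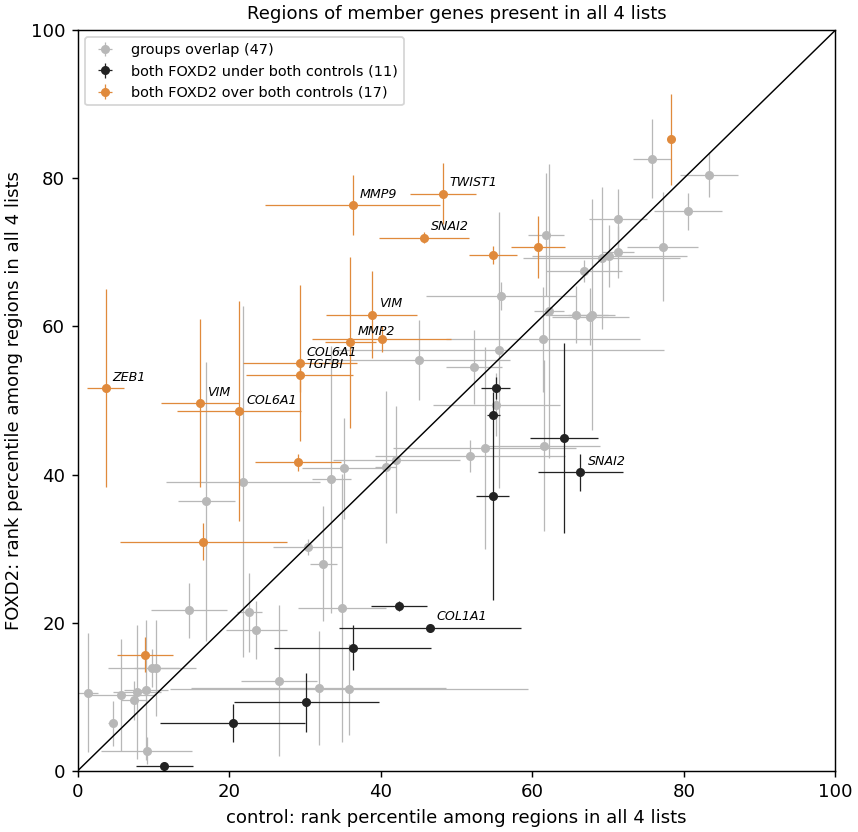
Percentile of −log10 q among shared regions, control on the horizontal and FOXD2 on the vertical axis, for the 75 shared regions of the list. Points are means of 2 libraries, bars span both libraries, and the diagonal marks equality. The 17 orange regions lie above it with ZEB1 farthest (48.0 points), the 11 black ones lie below it, and the 47 grey ones overlap between the groups.

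A wider set of 43 other EMT genes (such as COL4A1, CD44 and TGFB2), likewise chosen with earlier results known, gave 29 open in all 4 libraries (67.4%) and 11 closed (25.6%). It held 13 gained (3.83%) and 12 lost (3.54%) regions, and of 125 shared regions 26 (20.8%) ranked higher and 20 (16.0%) lower.  The 26 epithelial genes had 15 gained (6.28%) and 13 lost (5.44%) regions, both above the 3.87% and 3.78% of the regions of all genes. Of their 105 shared regions 19 (18.1%) ranked higher and 20 (19.0%) lower. CDH1, the E-cadherin gene that SNAI and ZEB factors repress, was open at its 5′ end in every library and had 1 gained and 1 lost region among 10.

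Promoter sequence was compared with accessibility for the 19 listed genes found among 15812 RefSeq promoters. Over all promoters, those open in 4 libraries had a median of 22 CpG in the 250 bases and those closed in all had 3. The listed genes had the same order with a smaller gap. The 11 open ones had a median of 12, from 4 at AXL and 6 at PRRX1 to 24 at THBS1 and 32 at FN1, and the 4 closed ones had a median of 7. In the sequences printed above, the AXL flank holds few capitals yet an interval covered it in all 4 libraries. COL5A1 holds 29 CpG and was covered in 0 of them, as was POSTN, with 1 CpG. LOX had 13 CpG, and its control intervals lay inside the gene and did not reach the printed bases.

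**Figure D5:**
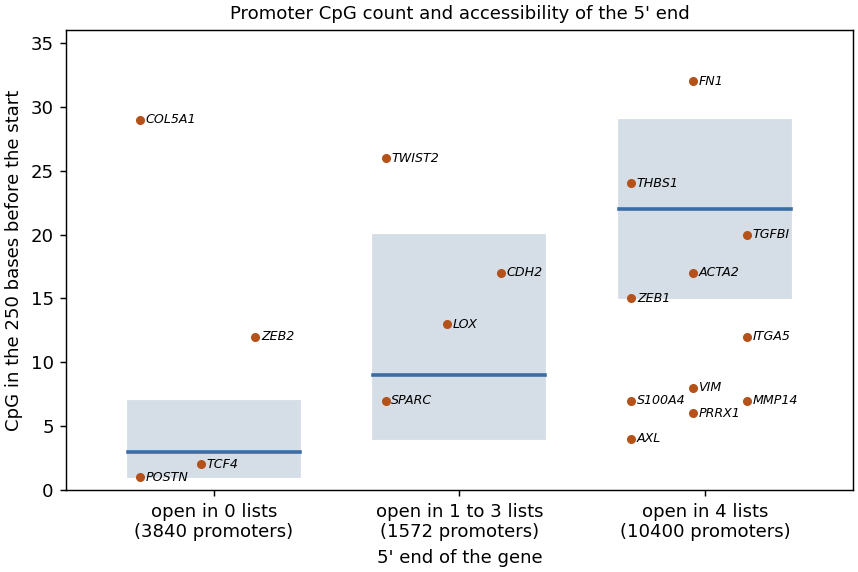
CpG in the 250 bases before the start of the 19 listed genes with a promoter entry, grouped by how many libraries were open at the 5′ end. Grey boxes and blue lines are the interquartile range and median of all protein-coding promoters in the same state, and sideways offsets within a group only separate the labels. COL5A1 (29) and ZEB2 (12) lie above the range of closed promoters, and AXL, PRRX1, MMP14, S100A4, VIM and ITGA5 (4 to 12) lie below that of open ones.

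Motif letters were searched on both strands of these flanks, and a match is a description of the sequence, not a binding site. The forkhead letters TGTTTAC occurred in 2 of 19 (10.5%), against 2.26% of all promoters. In ACTA2 they lie in a flank that intervals of all 4 libraries touched, and in TCF4 in a flank that none touched. The ACTA2 letters lie 221 bp before the start, farther out than any of these intervals reached, so no interval covered a forkhead match. The E-box CACCTG (reverse complement CAGGTG), bound by SNAI and ZEB factors, was in AXL, S100A4 and ZEB1 (15.8%, against 17.1% of all). The TEAD letters GGAATG or CATTCC were in ITGA5, SPARC, TCF4 and THBS1 (21.1%, against 10.1%). The AP-1 letters TGANTCA were in POSTN alone (5.26%, against 5.05%), TATAAA or TTTATA in POSTN and S100A4 (10.5%, against 9.25%), and the CArG box of serum response factor in 0 of 19, against 1.14%. TAGLN was not among the 19. Each gene was searched before its annotated start alone, which at ACTA2 lies near an end of FAS. With so few promoters, each share rests on a handful of genes.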

How the data were processed

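The authors deposited a list of peak intervals (hg38) for each of the 4 ATAC-seq libraries. MACS2 2.2.7.1 and bedtools, along with Bowtie2 2.3.4.1 and cutadapt 3.4, and Picard are named, without order, per the submitters' processing notes. Peak-calling settings, and whether reads were shifted for Tn5, were not given in the sources used here. Deposited fold enrichment is the authors' ratio of a summit to its local background within a library, per the MACS2 narrowPeak layout. The −log10 p and −log10 q deposited by the authors belong to the summit, and the deposited score was not used. The lowest −log10 q in the lists was 2.00 to 2.03, so weaker sites are absent from them.

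Intervals on chromosomes 1 to 22 and X were merged into regions where they shared 1 bp or more. A region was assigned to the protein-coding gene it overlapped, or else to the nearest within 100 kb (RefSeq, GRCh38.p14). Strand and start came from the RefSeq promoter table for 19 of the 31 genes. For the other 12 either gene end was accepted. Exons, introns and untranslated regions were not annotated, and region sequences were not used. Every gene on the list was accounted for. Values per library are given for genes with a gained or lost region or an inconstant 5′ end, and for the strongest shared region by mean percentile.

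The genes and all lists were chosen with earlier results of these data known. With 2 libraries a group, counts were described beside those of all regions or genes, and the sole test was an exact permutation test over libraries. Alternatives covered the −log10 q threshold, list length, merging, distance, windows of 100 bp to either side of the summits, the window at the 5′ end, ranking by fold and leaving out each library. The merging of gaps of up to 200 bp was chosen after seeing the data. Python 3.11.15, pandas 2.3.3, numpy 2.4.6, scipy 1.17.1 and matplotlib 3.10.9 were used, and the scripts were tested on simulated lists.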

Additional observations from a re-analysis of the deposited data

How the results depend on the processing

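The 4 gained regions became 2 with −log10 q of 5 or more, 2 with lists of equal length, and 2 when only regions inside a gene or within 1000 bp were kept. That last setting gave 6 lost regions in place of 10, 7 lower shared regions in place of 11 and 8 higher in place of 17. Followed singly, the gained regions of AXL, ITGA5 and COL5A1 and the lost ones of TAGLN and VIM ended with −log10 q of 5 or more and with equal lists. With summit windows the gained region of ITGA5 and the lost ones of LOX and PRRX1 ended. With gaps of up to 200 bp closed, those of VIM and 1 of COL5A1 ended. Leaving out a library relaxes each rule to 3 libraries: gained regions ranged from 8 to 28, lost from 16 to 37, lower from 20 to 27 and higher from 29 to 38. Gained and lost numbered 9 and 34 without control replicate 1 (6.91% and 14.4% of all regions), 8 and 37 without control replicate 2 (6.18% and 17%). With FOXD2 replicate 1 left out they numbered 13 and 25 (12% and 10.3%), and with FOXD2 replicate 2 left out 28 and 16 (19.5% and 5.93%). Gained minus lost regions reversed at FN1, from −1 to 2 without FOXD2 replicate 1 (range −2 to 2), and at ITGB3, from −1 to 1 without FOXD2 replicate 2 (range −1 to 1). Of the 290 such net counts over all alternatives, 90 moved without reversing. Ranking by fold reversed the difference at FN1 (2.61) and TAGLN (1.43) and lessened it at TWIST1 (16.7 in place of 29.8), MMP9 (28.5 in place of 40.1) and COL6A1 (12.8 in place of 25.7). Among strongest regions whose groups overlap, it also changed sign at AXL (3.17), ACTA2 (−7.31) and PRRX1 (−2.67). Open 5′ ends numbered 16 to 21 and closed ones 6 to 9 under every alternative run for them, and the difference in interval share stayed negative. No paired analysis was possible because nothing documents that equal replicate numbers share a culture or day, and the counts of regions come from no test. Read depth is unknown, so a site missing from a list may lie just under the calling threshold.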
